A study of Mus musculus with 6 samples.

Results

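A set of 10 genes used as markers of mesenchymal stem cells and of mural cells was followed in dental pulp of wild-type (WT) and Mmp13-/- mice, in which the collagenase MMP13 is missing. The members were Pdgfrb, Rgs5, Cspg4, Mcam, Acta2, Thy1, Eng, Nt5e, Lepr and Prrx1, and each was taken as the row of the gene table that carries its symbol, which gave 10 of 53342 genes. RNA sequencing had been performed on 3 WT samples (replicates 2, 4 and 5) and 3 Mmp13-/- samples (replicates 1, 2 and 6), each an independent biological sample per the study's methods. The mice were 3 months old, male and on a C57BL/6 background, and the mutants were homozygous global knockouts with no treatment named, so that MMP13 was absent from every tissue and throughout development. Tooth type and RNA extraction differ between the sources, with molars and an RNeasy column in the labels and incisors and TRIzol in the methods.

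Mural cells wrap blood vessels, as pericytes on capillaries and as smooth muscle cells on arterioles and larger vessels. In dental pulp the perivascular wall is known as a niche of mesenchymal stem cells that can give rise to odontoblasts, the cells that lay down dentin. The genes below mark such cells without being exclusive to them, since endothelial cells, lymphocytes, nerve and muscle express some of them as well. In bulk tissue, fewer cells of a type and less RNA per cell cannot be told apart.

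The targeted gene was checked first. Mmp13 stood at 1009, 1072 and 826 normalized counts (counts scaled by library size and TMM factor to the mean library) in WT replicates 2, 4 and 5, and at 8.85, 30.1 and 64.0 in Mmp13-/- replicates 1, 2 and 6. The genotypes did not overlap, and the log2 fold change was -4.96 (SE 0.458, adjusted p = 7.67e-05, edgeR quasi-likelihood test, Benjamini-Hochberg adjustment over 24534 genes). Libraries held between 21561420 and 29980236 estimated counts. Mmp13-/- replicate 6 stood apart from the other libraries. Its 10 most abundant genes took 53.7% of its counts, against 22.6% to 27.2% elsewhere, and 1451 odorant and vomeronasal receptor genes, used as a measure of background reads, gave 1496 CPM (counts relative to the TMM-scaled library size) against 257 and 316 in the other Mmp13-/- libraries and 18.3 to 21.5 in WT. At that background rate, 12.4% of the Thy1 reads of this library would be background, which was the highest share of any member in any library, and the highest share in a WT library was 0.408%. The counts of members and of the lists closest to them are given with and without it.

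All 10 members passed the filter on low counts. At an adjusted p under 0.05, 9 of them differed between the genotypes, with 4 higher in Mmp13-/- (Rgs5, Acta2, Nt5e and Lepr) and 5 lower (Pdgfrb, Cspg4, Mcam, Thy1 and Eng). Among all genes tested, 27.3% were higher and 24.3% lower by the same rule. Over 2-fold, 2 members were higher (Rgs5 and Lepr) and 1 lower (Cspg4), where 20.4% and 9.68% of all genes passed. The samples of the genotypes did not overlap for 9 of the 10 members, against 60.9% of all genes tested. The median log2 fold change of the members was -0.38, beside 0.10 for all genes tested. Without Mmp13-/- replicate 6 the count at any fold was 8, since Mcam no longer passed, and the median was -0.25.

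The transcripts' base composition moved with these directions. The 5 members that were lower had a GC content of 54.8% or more, and the 4 that were higher of 49.9% or less, with Prrx1 at 43.4%. Spearman's rho between GC content and log2 fold change was -0.89 over the 10 members, which share the same 6 libraries, and -0.53 over 24492 genes tested with a known GC content. With each library corrected for GC content (an offset from a loess fit), 5 members passed, 4 higher (Rgs5, Acta2, Nt5e and Lepr) and 1 lower (Prrx1). In that fit, 25.1% of all genes were higher and 10.9% lower. The 5 members that fell without the correction did not pass with it, so the fall of each member is given below with its corrected value. Whether the relation with GC content arose in the libraries or in the tissue was not tested.

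**Figure D1:**
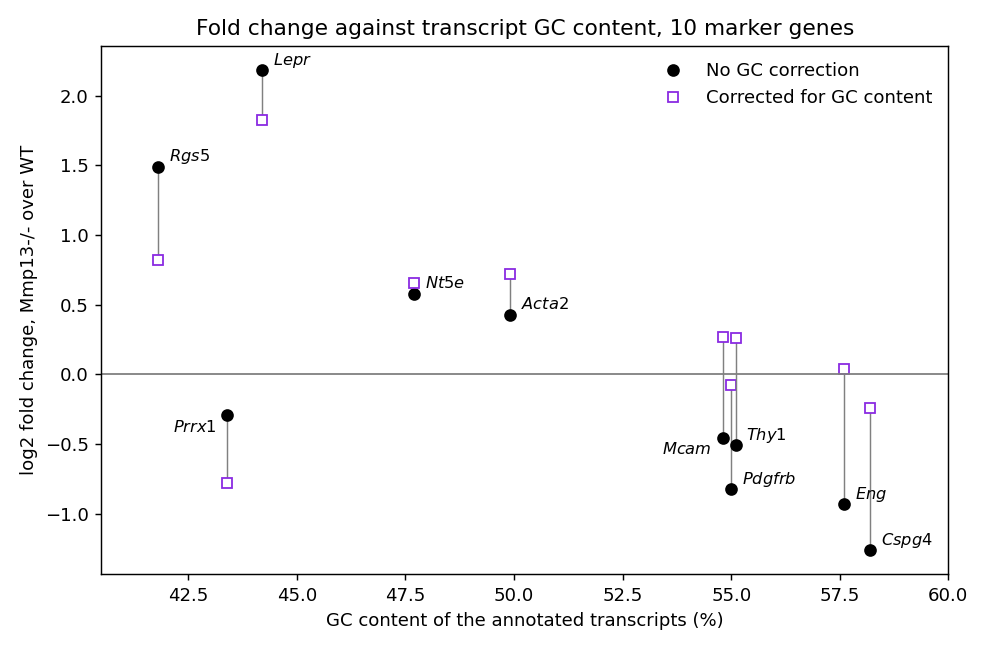
Log2 fold change of Mmp13-/- over WT (vertical axis) against the GC content of the annotated transcripts in percent (horizontal axis) for the 10 marker genes, from edgeR without (black circles) and with (open squares) correction of each library for GC content. The 5 genes from 54.8% to 58.2% GC lay below 0 without the correction and between -0.24 and 0.27 with it, whereas Lepr and Rgs5 stayed at 1.83 and 0.82.

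Upstream sequences are printed for genes of each direction, as the letters before the start of Rgs5, of Cspg4 and of Eng, with short pieces around matches upstream of Acta2. They come from RefSeq on GRCm38.p6 and are given 5′ to 3′ on the gene's strand. The first 3 stop at the first base that the GENCODE annotation gives to the gene, whereas the Acta2 pieces lie within the annotated gene, which starts further upstream than the RefSeq start and takes in 217 of the 250 bases searched. Capitals mark the GC box (GGGCGG on either strand) or the CArG-like element, a form of the binding site of serum response factor, which drives contractile genes of smooth muscle. The Rgs5 sequence, at chr1:169655251-169655500 on the plus strand, held no match.
Rgs5: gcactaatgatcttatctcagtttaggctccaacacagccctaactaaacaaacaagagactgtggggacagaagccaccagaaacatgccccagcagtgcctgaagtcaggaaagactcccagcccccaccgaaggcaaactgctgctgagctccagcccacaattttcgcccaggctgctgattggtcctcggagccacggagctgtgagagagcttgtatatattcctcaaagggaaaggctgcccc
The Cspg4 sequence, at chr9:56864854-56865032 on the plus strand, held 2 GC boxes.
Cspg4: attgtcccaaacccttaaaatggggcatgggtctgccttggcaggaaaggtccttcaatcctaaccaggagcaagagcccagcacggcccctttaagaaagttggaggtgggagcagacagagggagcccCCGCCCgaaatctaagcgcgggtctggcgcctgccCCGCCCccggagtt
The Eng sequence, at chr2:32646345-32646594 on the plus strand, held 1 CArG-like element.
Eng: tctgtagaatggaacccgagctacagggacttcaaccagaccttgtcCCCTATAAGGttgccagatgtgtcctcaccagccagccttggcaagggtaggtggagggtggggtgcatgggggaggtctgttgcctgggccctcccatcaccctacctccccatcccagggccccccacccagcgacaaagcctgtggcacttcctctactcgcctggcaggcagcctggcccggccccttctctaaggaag
Upstream of Acta2, on the minus strand, 2 such elements began 84 and 34 bases before the RefSeq start. The pieces printed around them span chr19:34255438-34255467 and chr19:34255388-34255417.
Acta2, distal: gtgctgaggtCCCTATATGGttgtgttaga
Acta2, proximal: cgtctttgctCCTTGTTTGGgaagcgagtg
Matches were searched in the 250 bases before each RefSeq start on both strands, for 8 members with an entry (Pdgfrb and Thy1 had none). A CArG-like element was present for Acta2, which rose, and for Eng, which fell, and in 8.59% of 32536 promoters. The strict CArG box, found in 1.48% of promoters, matched in none of the members' windows, and every strict CArG box also counts as CArG-like. GC boxes were found for Cspg4 (2), Mcam (5), Nt5e (4) and Lepr (1, at the second of its RefSeq starts), and in 33.0% of promoters. TATAAA, the TATA box, occurred in 12.3% of promoters and in no member's window.

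Pericyte markers moved in opposite directions. Pdgfrb encodes the receptor by which pericytes respond to PDGF-BB from endothelial cells. It was counted at 5387, 6202 and 5682 in WT replicates 2, 4 and 5, and at 3065, 3812 and 2867 in Mmp13-/- replicates 1, 2 and 6. Every Mmp13-/- sample lay below every WT sample. Pdgfrb was 1.77-fold higher in WT (log2 fold change -0.83, SE 0.167, adjusted p = 0.00261, edgeR), and after correction for GC content the change was -0.08 (adjusted p = 0.617, edgeR).

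Cspg4, the NG2 proteoglycan of pericytes and oligodendrocyte precursors, was the member that fell the most. WT samples had normalized counts of 4592, 5858 and 4878, and Mmp13-/- samples of 2001, 2433 and 1957. The highest Mmp13-/- sample stood well under the lowest WT sample. The fold was 2.40 in favour of WT (log2 fold change -1.26, SE 0.167, adjusted p = 0.000292, edgeR). With the GC correction it was -0.24 and did not pass (adjusted p = 0.129, edgeR).

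Mcam, the adhesion molecule CD146 on pericytes and endothelial cells and a marker used to isolate pulp stem cells, changed less. WT replicates 2, 4 and 5 had 917, 1154 and 1092 counts, and Mmp13-/- replicates 1, 2 and 6 had 785, 882 and 633. The genotypes did not overlap, with the highest mutant sample close under the lowest WT sample. The log2 fold change of -0.46 (SE 0.163) passed narrowly (adjusted p = 0.0380, edgeR), turned to 0.27 with the GC correction (adjusted p = 0.0960, edgeR), and no longer passed without Mmp13-/- replicate 6 (adjusted p = 0.0756), Mmp13-/- replicate 1 (0.0545), WT replicate 4 (0.105) or WT replicate 5 (0.0753). Of Mcam's exon bases, 17 are shared with Gm10687 on the opposite strand, and whether the counting used strand is not given in the sources used here.

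Rgs5, a regulator of G-protein signalling that is among the most selective pericyte transcripts, rose. It stood at 2639, 1799 and 1874 counts in WT and at 6189, 7031 and 4519.6 in Mmp13-/-. Mmp13-/- replicate 6 was the lowest of the mutant samples and still above all WT samples. Rgs5 was 2.81-fold higher in Mmp13-/- (log2 fold change 1.49, SE 0.218, adjusted p = 0.000480, edgeR). The GC correction lowered this to 0.82 and the difference still passed (adjusted p = 0.00298, edgeR), and in a test against a 2-fold change itself Rgs5 passed as well (adjusted p = 0.0472, edgeR). Its relative Rgs4, also on the pericyte list, had a log2 fold change of -0.10 (adjusted p = 0.761, edgeR) on 303 ± 82.5 counts in WT and 282 ± 69.6 in Mmp13-/- (mean ± SD, n = 3).

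Acta2 encodes smooth muscle alpha-actin, found in vascular smooth muscle, some pericytes and myofibroblasts. WT samples had 1032, 950.3 and 932 normalized counts, and Mmp13-/- samples 1176, 1431 and 1310 in the order of replicates given above. The mutant samples were all higher, by a small margin. Acta2 rose 1.34-fold (log2 fold change 0.43, SE 0.135, adjusted p = 0.0230, edgeR), and 0.72 on the log2 scale after the GC correction (adjusted p = 0.00301, edgeR). Without the correction the call depended on single libraries and was lost in edgeR without WT replicate 2 (adjusted p = 0.0855), WT replicate 4 (0.111), WT replicate 5 (0.194), Mmp13-/- replicate 1 (0.0619) or Mmp13-/- replicate 2 (0.178), but not without Mmp13-/- replicate 6 (0.0191).

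**Figure D2:**
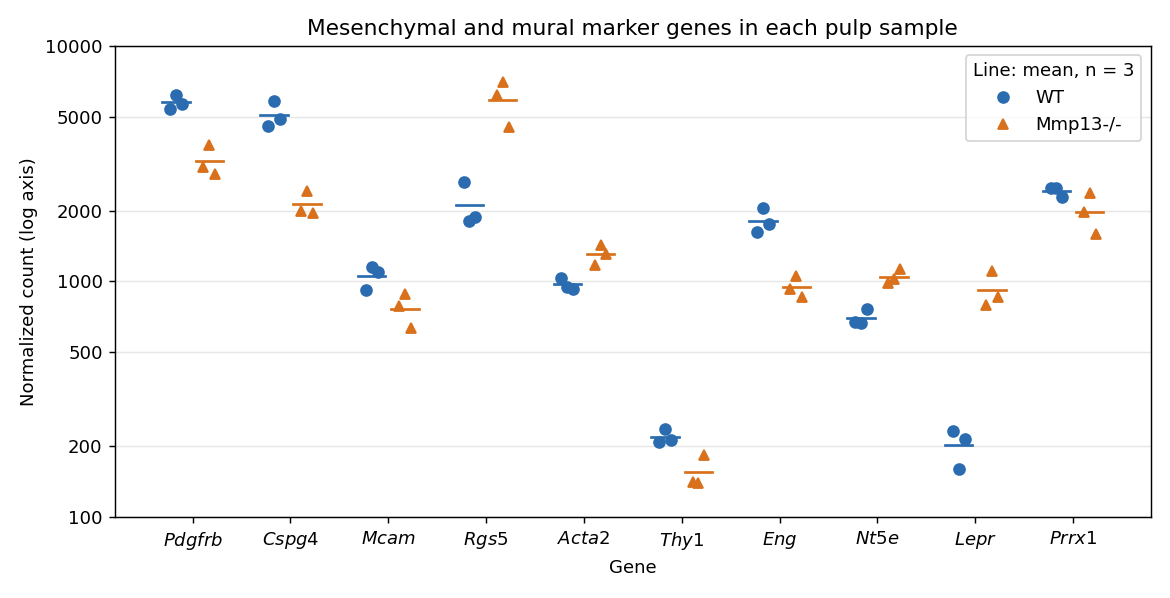
Normalized counts (vertical log axis) of each marker gene in the 3 WT (circles) and 3 Mmp13-/- samples (triangles), with lines at the means. Rgs5, Acta2, Nt5e and Lepr were higher in every mutant sample, Pdgfrb, Cspg4, Mcam, Thy1 and Eng lower, and Prrx1 overlapped.

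CD90, CD105 and CD73 are the surface proteins by which cultured mesenchymal stromal cells are commonly defined, and their genes did not move together. Thy1 encodes CD90, which T cells and neurons carry as well. It was a low gene here, with 209, 237 and 212 counts in WT and 141, 139.8 and 184 in Mmp13-/-. Replicate 6, with its higher background, was the highest mutant sample, and it stayed under the WT samples. The log2 fold change was -0.51 (SE 0.181, adjusted p = 0.0383, edgeR), and it turned to 0.26 with the GC correction (adjusted p = 0.299, edgeR). The uncorrected call was lost in edgeR without Mmp13-/- replicate 1 (adjusted p = 0.0914), Mmp13-/- replicate 2 (0.0851) or WT replicate 4 (0.0921).

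Eng encodes endoglin (CD105), a co-receptor for TGF-beta and BMP ligands that is highest on endothelial cells. WT samples had 1627, 2041 and 1754 counts, Mmp13-/- samples 929, 1056 and 859. The genotypes were clearly apart. Eng was 1.90-fold higher in WT (log2 fold change -0.93, SE 0.149, adjusted p = 0.000771, edgeR), whereas the GC-corrected change was 0.04 (adjusted p = 0.799, edgeR). Eng shares 61 exon bases with Fpgs on the opposite strand.

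Nt5e encodes CD73, the ecto-enzyme that turns extracellular AMP into adenosine. WT samples had 676, 664 and 761 counts and Mmp13-/- samples 986, 1028 and 1126. The 2 groups were apart, and their spread was small (coefficients of variation of 7.57% and 6.88%). Nt5e rose 1.49-fold (log2 fold change 0.58, SE 0.134, adjusted p = 0.00514, edgeR), and the change was 0.65 with the GC correction (adjusted p = 0.00799, edgeR).

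Lepr, the leptin receptor and a marker of perivascular stromal cells in bone marrow, changed the most of all members. It stood at 232, 160.4 and 214 counts in WT and at 792, 1108 and 859 in Mmp13-/-. The lowest mutant sample had over 3 times the count of the highest WT sample. Lepr was 4.55-fold higher in Mmp13-/- (log2 fold change 2.18, SE 0.194, adjusted p = 6.42e-05, edgeR), and in the test against a 2-fold change itself it passed too (adjusted p = 0.00122, edgeR). It was the single member still over 2-fold after the GC correction (log2 fold change 1.83, adjusted p = 0.000241, edgeR), and its change was 2.23 without Mmp13-/- replicate 6.

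Prrx1 encodes a homeobox factor of limb and craniofacial mesenchyme. Counts in WT samples were 2506, 2486 and 2293, those in Mmp13-/- samples 1963, 2379 and 1594. Mmp13-/- replicate 2 lay within the WT range, and replicate 6 was the lowest. The log2 fold change was -0.29 (95% interval -0.67 to 0.08, adjusted p = 0.166, edgeR), an interval that holds 0. Prrx1 was lower after the GC correction (-0.78, adjusted p = 0.00238, edgeR) and also passed without Mmp13-/- replicate 2 (-0.50, adjusted p = 0.0485, edgeR). The related Prrx2 had 829 ± 17.4 counts in WT and 329 ± 100.3 in Mmp13-/- (mean ± SD, n = 3) and fell (log2 fold change -1.32, adjusted p = 0.000778, edgeR), with -0.05 after the GC correction (adjusted p = 0.866, edgeR).

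**Figure D3:**
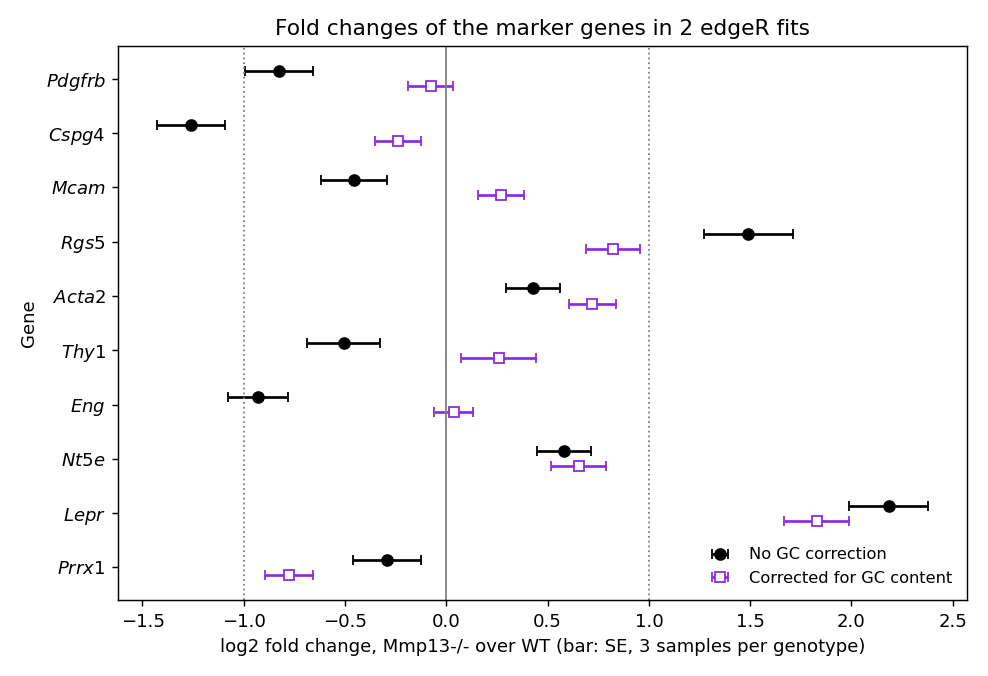
Log2 fold changes of Mmp13-/- over WT (horizontal axis, dotted lines at 2-fold) with their SE for the 10 marker genes, without (circles) and with (squares) correction for GC content. Rgs5, Acta2, Nt5e and Lepr lay above 0 in both fits, while Mcam, Thy1 and Eng changed sign.

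Per kilobase of exon, which allows levels of different genes to be compared, the order of the members differed between the genotypes. In WT, Pdgfrb was the highest at 1051 ± 75.3 normalized counts per kilobase (mean ± SD, n = 3). Rgs5 (463 ± 102.3), Eng (447 ± 52.4), Acta2 (442 ± 24.2) and Cspg4 (428 ± 55.7) followed, and the neighbours among these overlapped in their samples. Mcam (315 ± 36.8) and Prrx1 (219 ± 10.6) came next, Nt5e (81.4 ± 6.16) and Thy1 (73.2 ± 5.12) overlapped, and Lepr was the lowest (28.7 ± 5.30). In Mmp13-/- samples Rgs5 led at 1301 ± 281 counts per kilobase, clear of the rest. Acta2 (595 ± 58.0) and Pdgfrb (593 ± 90.9) overlapped behind it. Eng (234 ± 24.8), Mcam (229 ± 37.5), Prrx1 (179 ± 35.5) and Cspg4 (179 ± 22.03) overlapped from neighbour to neighbour, as did Lepr (130.4 ± 23.6) and Nt5e (122 ± 8.37), and Thy1 was the lowest (51.8 ± 8.44). A level per kilobase rests on annotated exon length, not on the transcript in use. These levels and their order are without the GC correction, and the members differ in GC content, with Rgs5 at 41.8% and Pdgfrb at 55.0%. Whether the order in Mmp13-/- samples would hold with the correction was not tested.

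Ratios of 2 genes within a sample do not depend on how libraries are scaled. Rgs5 was below Pdgfrb in every WT sample, at 0.490, 0.290 and 0.330 of its estimated count, and above it in every Mmp13-/- sample, at 2.02, 1.84 and 1.58 times. The difference was 2.32 on the log2 scale, and 0.90 from the GC-corrected fold changes. Cspg4 to Pdgfrb, both pericyte genes of high GC content, went from 0.852, 0.945 and 0.859 in WT to 0.653, 0.638 and 0.683 in Mmp13-/- (difference -0.43, and -0.16 from GC-corrected values). The difference of Acta2 against Pdgfrb was 1.26 and its difference against Rgs5 was -1.06 on the log2 scale, and the GC-corrected values were 0.80 and -0.10.

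Eng was lower against the endothelial gene Pecam1, from 1.13, 1.45 and 1.31 in WT to 0.636, 0.628 and 0.650 in Mmp13-/-, and the GC-corrected difference was -0.33. The ratio of Mcam to Pecam1 differed by -0.55 on the log2 scale and by -0.10 from GC-corrected values, and Mcam to Pdgfrb was higher by 0.37 and 0.35. Against Prrx1, Lepr was higher in Mmp13-/- by 2.50 and Nt5e by 0.89, with 2.60 and 1.43 from GC-corrected values, and Thy1 overlapped. Pdgfrb to Pdgfra, the receptor of PDGF-AA on pulp and other fibroblasts, turned from 1.33, 2.15 and 1.95 in WT to 0.658, 0.665 and 0.720. In all, 11 of the 12 ratios did not overlap between the genotypes. An exact two-sided permutation test gave p = 0.1 for each of these, the smallest that 3 samples against 3 allow (adjusted p = 0.109 over the 12 ratios), and p = 0.6 for Thy1 to Prrx1.

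**Figure D4:**
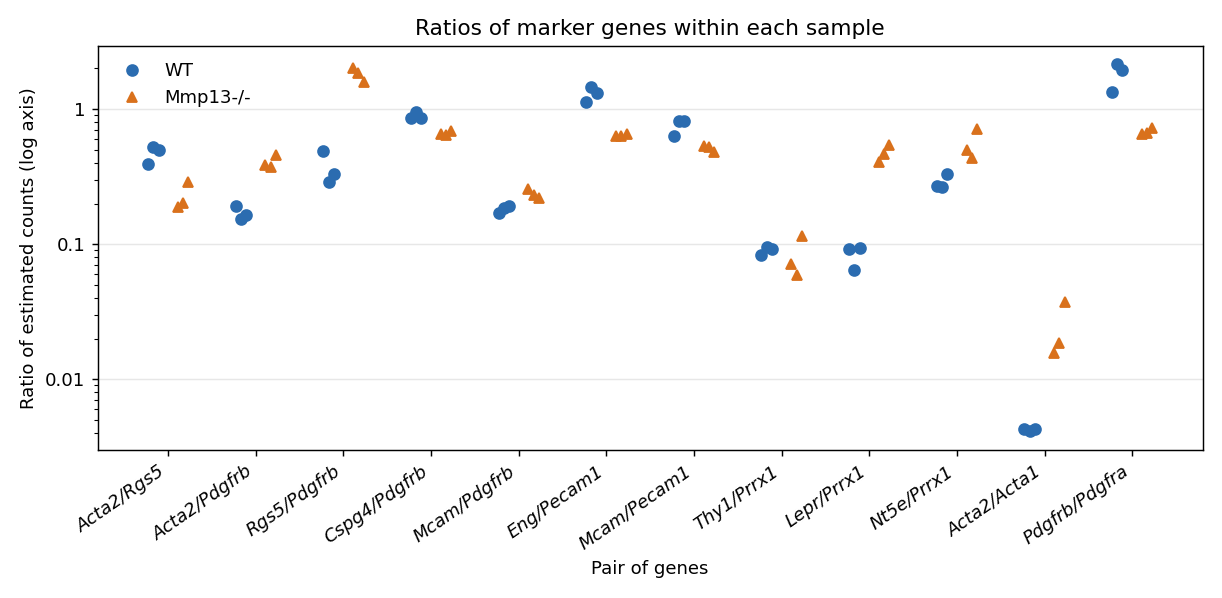
Ratio of the estimated counts of 2 genes (vertical log axis) for 12 pairs in each of the 3 WT (circles) and 3 Mmp13-/- samples (triangles). Rgs5 to Pdgfrb crossed 1, from 0.290 to 0.490 in WT to 1.58 to 2.02 in Mmp13-/-, and Thy1 to Prrx1 overlapped. The ratios shown are without the GC correction.

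Of 16 other pericyte markers, 1 was higher and 7 lower at an adjusted p under 0.05 (edgeR), with a median log2 fold change of -0.40 that became 0.07 with the GC correction, under which 1 was higher and 1 lower. Notch3, the receptor that arterial mural cells need to mature, fell by 1.12 on the log2 scale (adjusted p = 0.000259, edgeR) and was at 0.03 after the GC correction. Abcc9, the sulphonylurea receptor subunit of the pericyte potassium channel, fell by 0.68 (adjusted p = 0.0356, edgeR) and stayed lower with the correction (-0.73). Kcnj8, also on the list and named after its values were seen, passed in neither fit. Its changes were -0.35 and 0.17 with the correction (adjusted p = 0.134 and 0.411, edgeR). The part of skeletal muscle in the values of Abcc9 was not tested. Gucy1b1, a subunit of the nitric oxide receptor guanylate cyclase, rose by 1.44 (adjusted p = 0.00181, edgeR) and was at 1.04 with the correction. Gucy1a1, also a cyclase subunit on the list and named after its values were seen, passed in neither fit. Its changes were 0.34 and 0.08 with the correction (adjusted p = 0.148 and 0.735, edgeR).

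Vascular smooth muscle markers were divided. Of 15, 5 were higher and 6 lower, and with the GC correction 5 were higher and 4 lower. Des, Tpm2 and Smtn had log2 fold changes of -1.96, -1.78 and -1.54 (adjusted p = 0.000278, 0.00108 and 0.000115, edgeR), and of -1.22, -0.96 and -0.38 with the correction. Desmin and Tpm2, the most abundant of the list, are also proteins of skeletal muscle. Among 12 skeletal muscle markers 10 were lower and none higher by the edgeR test, and 6 were lower and none higher with the GC correction. Their summed level fell from between 1629680 and 1889530 normalized counts in WT to between 293521 and 689636 in Mmp13-/-. Muscle transcripts were thus abundant in samples labelled as pulp. Tagln, a smooth muscle gene chosen for mention after its values were seen, rose by 0.53 (adjusted p = 0.0163, edgeR). Myh11, chosen likewise, had a change of 0.28 that did not pass (adjusted p = 0.0913, edgeR). With the GC correction Tagln and Myh11 were at 0.97 and 0.88, and both passed (adjusted p = 0.00219 and 0.000877, edgeR). Lmod1, Mylk and Synpo2, also named after their values were seen, had changes of -1.25, -1.01 and -1.32 (adjusted p = 0.00294, 0.00332 and 0.00209, edgeR). With the correction these were at -0.63, -0.37 and -1.43, and of them Synpo2 alone passed (adjusted p = 0.113, 0.123 and 0.00194, edgeR). The ratio of Acta2 to Acta1, the skeletal alpha-actin, was 0.00425, 0.00412 and 0.00429 in WT and 0.0155, 0.0186 and 0.0371 in Mmp13-/-. No 150-base window of the longest Acta2 transcript was found in another gene's transcripts. The part of skeletal muscle in the values of Acta2 was not tested.

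Serum response factor acts on CArG elements together with the myocardin family. Of 10 genes for these factors and their targets, 1 was higher and 6 lower, with 1 and 3 after the GC correction. The one that rose was Myocd, myocardin itself and named after its values were seen, from 16.9 ± 11.5 counts in WT to 60.9 ± 41.1 in Mmp13-/- with overlapping samples (log2 fold change 1.81, adjusted p = 0.0280, edgeR), and without Mmp13-/- replicate 6 none of the list rose by the same test. Of the Myocd reads in Mmp13-/- replicates 1, 2 and 6, 28.1%, 22.8% and 45.4% were at the background rate. Srf and Tead1 had log2 fold changes of -1.44 and -1.25 (adjusted p = 0.000308 and 0.000610, edgeR), and of -0.08 and -1.18 with the correction. Vcl, vinculin, had a log2 fold change of -0.17 (adjusted p = 0.346, edgeR).

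Genes for PDGF ligands and the partner receptor moved both ways without the GC correction. Of these 5 genes, 2 were higher and 2 lower, and with the correction 2 were higher and none lower. Pdgfd, a ligand of PDGFR-beta, rose by 1.91 on the log2 scale (adjusted p = 0.000164, edgeR), with 1.07 after the GC correction. Pdgfa fell by 1.24 (adjusted p = 0.000230, edgeR), with -0.32 after the correction. Pdgfb, the main ligand and named here for that role, had 787 ± 119 counts in WT and 342 ± 20.1 in Mmp13-/- (log2 fold change -1.20, adjusted p = 0.000255, edgeR), and -0.06 with the correction. Pdgfra rose by 0.54 (adjusted p = 0.0415, edgeR), with overlapping samples.

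Of 10 ligands and receptors that work with endoglin, 3 were higher and 5 lower, and after the GC correction 3 and 3. Tgfb1 fell by 1.76 on the log2 scale (adjusted p = 4.88e-05, edgeR) and stayed lower with the correction (-0.92). Tgfbr1, the type I receptor of TGF-beta, rose by 1.47 (adjusted p = 0.000419, edgeR), and Tgfbr2 and Tgfb3 had changes of -0.58 and -0.98 (adjusted p = 0.0117 and 0.000963, edgeR). After the correction Tgfbr1 was at 1.02 and Tgfb3 at -0.41, and Tgfbr2 no longer passed (-0.18, adjusted p = 0.208, edgeR). Bmp10 and Gdf2, which bind endoglin directly, are among the genes counted as higher in both fits. They were at or under 3 counts in every WT sample, so no fold is given for them. In Mmp13-/- replicates 1, 2 and 6, 42.2%, 39.4% and 70.8% of the Bmp10 reads were at the background rate. For Gdf2 the shares were 37.5%, 25.6% and 53.9%.

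Around Nt5e, 3 of 10 genes of adenosine metabolism and its receptors were higher and 2 lower. Ada, adenosine deaminase, varied too much between samples for a difference to be seen (2996 ± 3477 counts in WT, 5438 ± 4495 in Mmp13-/-). Alpl, the alkaline phosphatase of mineralising cells, fell by 0.68 on the log2 scale (adjusted p = 0.0134, edgeR), with 0.17 after the GC correction. Adora3 rose by 3.21 (adjusted p = 0.00261, edgeR), from 3.67 ± 1.90 counts in WT that lie near the floor of 3 counts, and 25.5%, 20.6% and 52.9% of its reads in Mmp13-/- replicates 1, 2 and 6 were at the background rate. Nt5c1a fell by 1.61 (adjusted p = 0.000975, edgeR) and no longer passed with the GC correction (-0.63, adjusted p = 0.101, edgeR).

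Around Lepr, 2 of 7 genes of leptin signalling were higher and 4 lower. Those counted as higher were Leprot and Lep, the gene for leptin, named here for its low counts. Lep had 4, 4 and 8 estimated counts in WT replicates 2, 4 and 5. In Mmp13-/- replicates 1, 2 and 6, its background rate equalled 42.3%, 29.5% and 101% of its reads. Leprot, named as the leptin receptor overlapping transcript, rose by 0.80 on the log2 scale (adjusted p = 0.00412, edgeR). Socs3 and Ptpn1, both inhibitors of leptin signalling, and Stat3, its transcription factor, had log2 fold changes of -1.04, -0.87 and -0.64 (adjusted p = 0.00106, 0.00140 and 0.00906, edgeR). With the GC correction these 3 were at 0.16, -0.07 and -0.10, and Leprot stayed higher at 0.77.

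Of 20 stromal markers of tooth and marrow, 9 were higher and 8 lower, with a median log2 fold change of 0.04, and with the GC correction 9 were higher and none lower by the edgeR test at an adjusted p under 0.05. Vcam1 and Kitl, which marrow stromal cells expressing Lepr also carry, rose by 1.98 and 1.78 on the log2 scale (adjusted p = 6.23e-05 and 0.000180, edgeR), and stayed higher with the correction (1.35 and 1.14). Cxcl12, named after its value was seen as another gene of those cells, had a change of -0.02 (adjusted p = 0.95, edgeR). Cd44 rose by 0.55 and Itgb1 by 1.24. Among 8 fibroblast matrix genes 3 were higher and 4 lower, with Lum and Postn up by 2.99 and 2.71, and Col1a1 and Col3a1 at -2.16 and -1.58, in directions that the correction did not change. Without Mmp13-/- replicate 6 the stromal count was 7 higher and 6 lower, the pericyte count 2 and 7, and the smooth muscle count 4 and 6.

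Marrow and blood cell genes rose in the same libraries as Lepr. Of 12 myeloid and marrow cell markers 11 were higher and none lower by the edgeR test, and their sum went from between 14869.8 and 23185.6 normalized counts in WT to between 41483.3 and 83974.4 in Mmp13-/-. S100a8 and S100a9, calcium-binding proteins abundant in neutrophils, rose by 4.90 and 5.19 on the log2 scale, and the globin genes Hbb-bt and Hba-a1 by 2.76 and 0.77. Beside Thy1, 5 of 8 T cell markers were higher and none lower, with a sum of 143 to 178 counts in WT and 399 to 457 in Mmp13-/-, and Cd3d was at or under 3 counts in every WT sample. Without Mmp13-/- replicate 6 the count was 4. In that library 77.6% of the reads of Cd3g, 45.5% of Cd8a and 41.0% of Cd3e were at the background rate, and in replicates 1 and 2 the shares were 33.1% and 26.0% for Cd3g. The neuronal and Schwann markers, of which 1 was higher and 2 lower of 10 tested, summed to between 2112 and 6741 in WT and between 2151 and 2580.1 in Mmp13-/-. With the GC correction 4 of them were higher and none lower. Snap25 and Nefl were at or under 3 counts in every WT sample. The part of these cells in the values of Lepr, Thy1 and Nt5e was not tested.

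Beside Eng and Mcam, 1 of 12 endothelial markers was higher and 7 lower, and with the GC correction 4 were higher and 2 lower. Tie1, Egfl7 and Cdh5 had log2 fold changes of -0.88, -0.91 and -0.45 (adjusted p = 0.00147, 0.00218 and 0.0419, edgeR). With the GC correction none of these 3 passed by edgeR and their values were 0.11, 0.046 and 0.079 (adjusted p = 0.475, 0.827 and 0.625). Emcn rose by 1.47 (adjusted p = 0.000379, edgeR), with 0.87 after the correction, and Pecam1 had a change of 0.09 (adjusted p = 0.599, edgeR). Of 10 odontoblast markers 3 were higher and 4 lower, and 4 and 1 with the GC correction, with Mepe at 2.35 and Col1a1 at -2.16 as the 2 of smallest adjusted p. Of 8 dental epithelium markers, Krt14 and Krt5 were lower (-1.33 and -1.31, adjusted p = 0.00744 and 0.00345, edgeR), and neither passed with the GC correction (-0.39 and -0.38, adjusted p = 0.330 and 0.256, edgeR), where 1 other gene of the list was higher. Of 8 proliferation markers 7 were higher and none lower by the edgeR test, with Mki67 up by 2.26 and Top2a by 2.28.

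**Figure D5:**
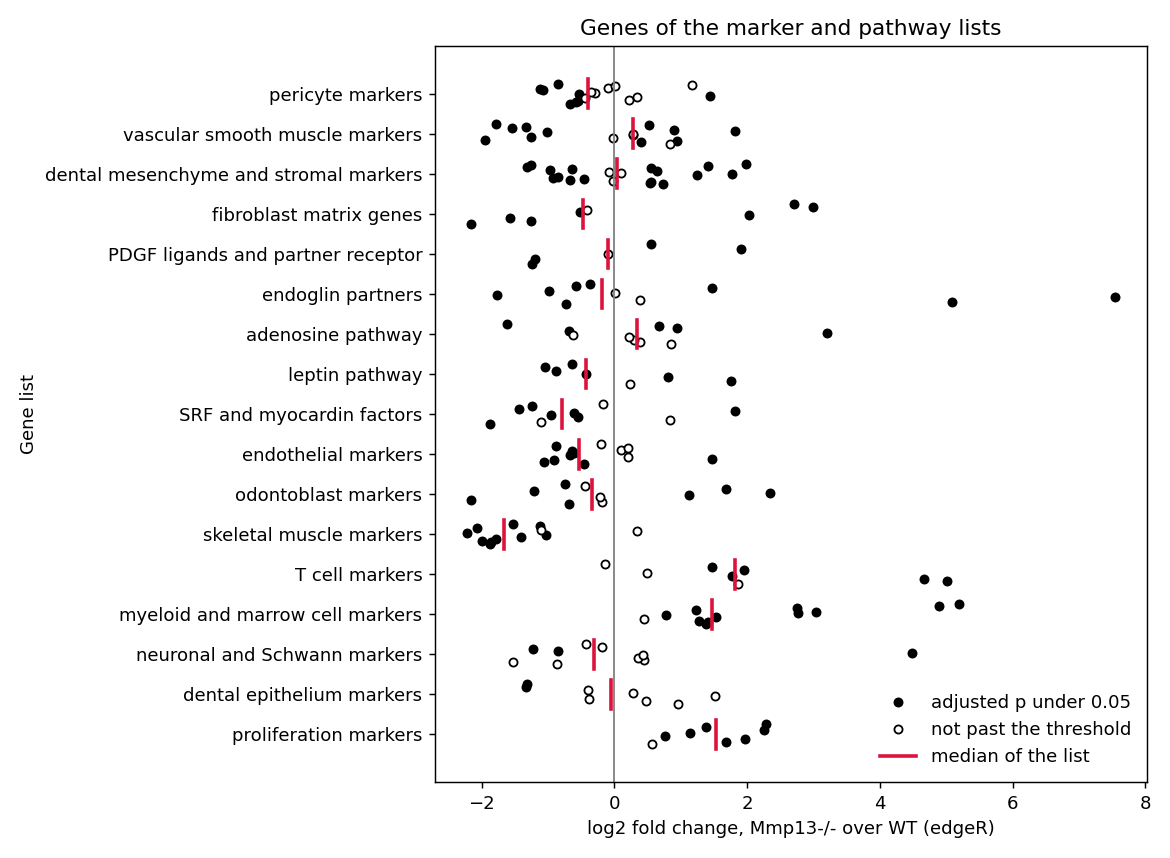
Log2 fold change of Mmp13-/- over WT (horizontal axis) for each tested gene of 17 marker and pathway lists (rows), filled where the edgeR adjusted p was under 0.05, with the median of each list as a red line. Medians ran from -1.66 for skeletal muscle to 1.82 for T cells, and the pericyte, smooth muscle and stromal lists spread over both sides of 0.

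For 9 of the members, the gene whose profile over the 6 samples came closest was sought among 10785 well-expressed genes, by the root mean square difference of centred log2 CPM. Acta2 was closest to Cald1, which encodes caldesmon, another contractile protein of smooth muscle (0.0291). Lepr was closest to Trim12c (0.0273), Eng to C1qtnf6 (0.0259), Prrx1 to Cbfa2t2 (0.0245), Cspg4 to Cdc42ep1 (0.0390), Mcam to Tmem243 (0.0385) and Rgs5 to Pex2 (0.0454). Nt5e, with Fyb (0.0574), and Thy1, with the predicted gene AC154176.2 (0.0586), had the least close partners. With 6 samples in 2 groups, genes that differ alike between the genotypes come out as alike.

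On chromosome 9, which holds Mmp13 (chr9:7272514-7283331), lie 4 of the members. Going away from it are Thy1 (chr9:44043384-44048579), Mcam (chr9:44134469-44142727), Cspg4 (chr9:56865033-56899870) and Nt5e (chr9:88327197-88372092), which start 36.8, 36.9, 49.6 and 81.0 Mb beyond it in GRCm38. The first 3 were lower in Mmp13-/- and Nt5e higher. Rgs5 (chr1:169655501-169695813) and Prrx1 (chr1:163245119-163313710) share chromosome 1, Eng lies at chr2:32646595-32682669, Lepr at chr4:101717404-101815352, Acta2 at chr19:34241090-34255590 and Pdgfrb on chromosome 18.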

How the data were processed

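Pulp RNA of 3 WT and 3 Mmp13-/- mice had been sequenced as paired reads. The authors quantified genes in Strand NGS 4.0, and the estimated counts they deposited carry fractions where reads were shared, and were rounded here to whole numbers. The deposited log2 values are these counts over DESeq size factors, floored at 1 and shifted so that each gene has a median of 0, and recomputing them gave the same values to within 2.35e-06. The submitters' processing notes name the mm10 build, and the aligner is not given in the sources used here.

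Genotypes were compared over all 6 samples with edgeR 4.0.16 in R 4.3.3 (quasi-likelihood test, TMM factors, edgeR's filter on low counts by genotype, Benjamini-Hochberg adjustment over 24534 genes, no covariates). A gene was called over 2-fold at an adjusted p under 0.05, and calls at any fold were counted too. The study compared log2 values gene by gene with Storey's q, which was kept as an alternative because the table holds counts. Alternatives were RLE, upper-quartile and no factors, factors without the 10 most abundant genes, no filter or a minimum of 10 counts in all samples, DESeq2 1.42.0, limma 3.58.1, a test against a 2-fold change, an adjusted p under 0.01, each sample left out in turn, GC correction (loess span 0.4), subtraction of the receptor-gene background rate per kilobase of exon, and both corrections. GC correction without Mmp13-/- replicate 6 was added after seeing the data. Some of the fits were run on simulated data that held no GC trend and no raised background in 1 genotype. That run therefore cannot show how the fits handle these features. Ratios used estimated counts with 0.5 added before the log2 and an exact permutation test.

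Exon length, GC content and positions came from GENCODE M21 (GRCm38), where 99.8% of genes were found by Ensembl identifier. A total of 3 counts, taken as the floor, equals 0.100 to 0.139 CPM, and intervals of counts cover counting error only, so errors in the text are over samples. The members and the gene lists were chosen with earlier results of these data known. Besides the members, named genes were Mmp13, genes of the ratios, the paralogs Acta1, Actc1, Actg2, Prrx2, Rgs4 and Pdgfra, from each list the 2 of highest level per kilobase and the 2 of smallest adjusted p, and the gene most like each member (not reported here for Pdgfrb), with additions stated where they occur. In lists of other cell types, some genes that meet this rule are counted without their own values. No set test was run.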

Additional observations from a re-analysis of the deposited data

How the results depend on the processing

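Rgs5 and Lepr stayed higher and passed under all 20 alternatives that gave them a test, from 0.82 to 1.69 and from 1.78 to 2.39 on the log2 scale. GC correction had the widest effect. It left 1 member over 2-fold and 5 at any fold, with a median of 0.26, and Mcam, Thy1 and Eng turned to 0.27, 0.26 and 0.035. With background subtraction as well, these values were 1, 5, 0.25, 0.29, 0.21 and 0.058, and with GC correction and without Mmp13-/- replicate 6 they were 1, 5, 0.21, 0.34, 0.073 and 0.067. The GC offsets are the sole change in the alternative with GC correction alone. What lies behind the relation with GC content was not tested.

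The median of the members was -0.18 with upper-quartile factors, -0.24 without factors, -0.25 with at least 10 counts in every sample and -0.24 with background subtraction. Without factors 4 members passed at any fold (Rgs5, Lepr, Cspg4 and Eng). With upper-quartile factors, at least 10 counts in every sample or background subtraction, 7 passed, and Mcam and Thy1 lost their calls in each. Thy1 did not pass in DESeq2 (adjusted p = 0.0539), nor Acta2 in limma (0.0575) or in edgeR with no filter (0.186). Upper-quartile factors, no factors and GC correction moved the median of all genes by 0.21, 0.11 and 0.16. With a sample left out, 3 to 5 members were over 2-fold, 6 to 8 passed at any fold, and the median ran from -0.50 to -0.25. The count of 5 came without Mmp13-/- replicate 2, where Pdgfrb (-1.01) and Eng (-1.07) joined. The causes of these shifts were not tested. The direction of 11 of the 12 ratios held with 5 counts added and with each sample left out, and Thy1 to Prrx1 went from -0.19 to 0.018 without Mmp13-/- replicate 2.

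Satellite genes were not left out of the scaling factors as such. No paired analysis was possible because the genotypes share the replicate number 2 and no other. With 3 samples a genotype, changes near the SE of 0.13 to 0.22 could not be resolved. Background reads limit low genes such as Thy1, most of all in Mmp13-/- replicate 6. In Mmp13-/- replicates 1 and 2 the background was above WT as well (257 and 316 CPM against 18.3 to 21.5). Leaving out replicate 6 therefore does not remove this limit.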
